A study of Mus musculus with 16 samples.

Results

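Acetylcholine is made in cholinergic neurons and acts on nicotinic receptors, so a gene list for this system holds both makers and receivers of the transmitter. The list examined here had 10 genes. Chat encodes choline acetyltransferase, which makes acetylcholine, and Slc5a7 encodes the transporter that carries choline back into cholinergic terminals. Chrna3, Chrna4, Chrna5, Chrna6 and Chrna7 encode alpha subunits and Chrnb2, Chrnb3 and Chrnb4 beta subunits of neuronal nicotinic receptors. The members were all probe sets (groups of short probes that read 1 transcript) whose only symbol in the array's annotation was 1 of these 10 genes. There were 20 such probe sets among 45101 on the array, and the 10 genes stand beside 18194 genes that had a probe set with a single symbol. All 10 genes had at least 1 probe set and no filter on low values was applied.

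The arrays profiled brain RNA of C57BL/6J mice. In brain, a fusion transcript of Ppargc1a, the gene of the coactivator PGC1α, contains an exon derived from a SINE repeat that holds a putative start codon. SINE KO mice were homozygous for a small CRISPR deletion just behind the start codon of that exon, came from 1 founder line, and were compared with wild-type (WT) littermates. The labels name no other allele or agent, the groups were age-matched, and the age of the array mice is not given in the sources used here. Each specimen was the cerebellum (cb) or the rest of the brain (Br), from which brain stem remnants had been removed by gross dissection. The 8 groups were WT and KO cerebellum and WT and KO rest of brain, each in females and in males, with 2 arrays per group and 16 in all. Whether arrays of the 2 brain parts that bear the same number came from 1 mouse is not in the labels.

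The deposited values were read as detection calls, in which a probe set is detected, marginal or not detected on an array. They carry no signal level, so a gene detected in both brain parts may still differ in amount, and no fold change can be given. The number of arrays limits the precision. With 8 against 8 arrays the smallest two-sided p of Fisher's exact test is 0.000155, with 4 against 4 it is 0.0286 and with 2 against 2 it is 0.333. Each array detected between 25517 and 28155 probe sets. All 5 Ppargc1a probe sets were detected on all 16 arrays, which is no check of the genotype labels, since the deletion leaves the transcript in place.

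In the brain, nicotinic receptors are cation channels built as rings of subunits. Alpha4 with beta2 forms the most widespread high-affinity type, and alpha7 forms channels from copies of itself. Alpha3 with beta4 is abundant in the medial habenula, a small nucleus above the thalamus, where alpha5 joins as an accessory subunit, and alpha6 with beta3 marks dopamine neurons of the midbrain and some other catecholamine neurons. Cholinergic cell bodies are few and lie in the basal forebrain, the striatum, the habenula and the brain stem. In whole-tissue RNA, fewer cells of a type and less RNA per cell cannot be told apart.

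The brain part labels were set against marker genes, and 4 arrays stood apart. Tbr1 and 1 probe set of Emx1, transcription factors of cortical neurons, were detected on 8 of 8 rest-of-brain arrays and 0 of 8 cerebellum arrays. Tbr1 was marginal on KO female cerebellum replicate 1. Of the 4 probe sets on the cortex and hippocampus list, Neurod6 did not separate the parts and was detected on all 16 arrays. The other Emx1 probe set, 1444216_at, was detected on none. WT female cerebellum replicate 2 detected 7 of 11 granule cell and 8 of 12 Purkinje cell probe sets, where the other cerebellum arrays all detected 10 and 12. It also detected 7 of 8 striatal probe sets against 4 to 5 on the others, and was the only cerebellum array to detect both probe sets of the dopamine receptor gene Drd1 and the single one of the dopamine transporter gene Slc6a3. KO female rest-of-brain replicate 1 detected 9 granule cell and 12 Purkinje cell probe sets, where the other 7 arrays of its brain part detected 4 to 8 and 7 to 10. Neither array followed the other brain part throughout: Tbr1 was not detected on the first and was detected on the second. These are called below the pair with unusual cerebellar markers. Both KO female cerebellum arrays stood apart in brain stem markers, with 7 of 14 probe sets each against 5 and 2 on the WT female and 1 to 2 on the male cerebellum arrays. Hoxb5, Hoxb6 and Hoxa5 (1443803_x_at), hindbrain and spinal cord genes, were detected on these KO female arrays and on no other cerebellum array. The member comparison of brain parts is given with all arrays and without each of these pairs.

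**Figure D1:**
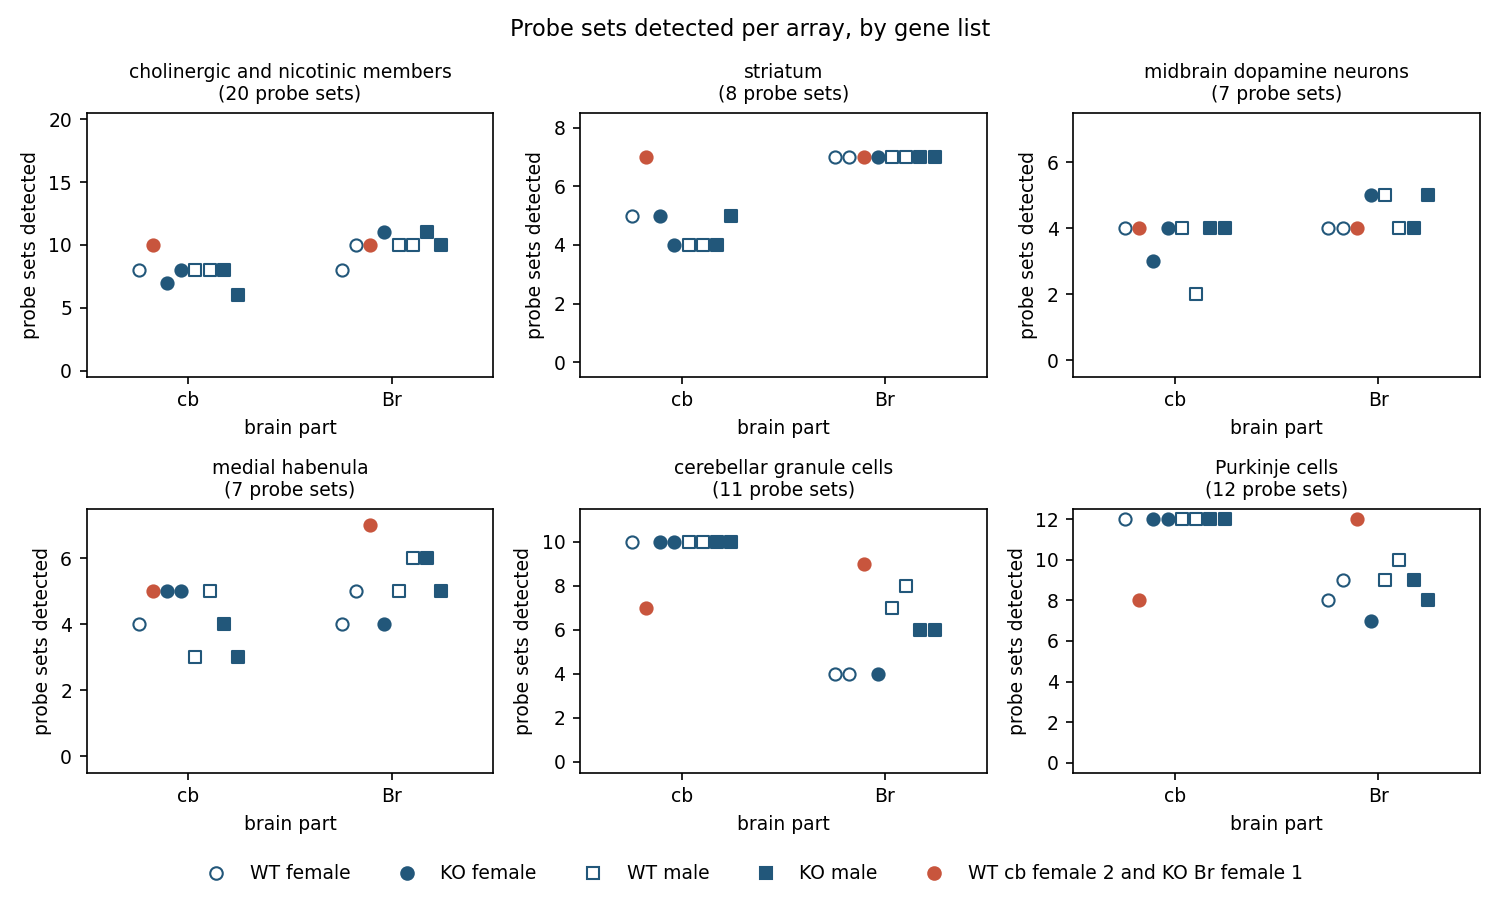
Number of probe sets detected (vertical axis) on each of the 16 arrays of cerebellum (cb) or rest of brain (Br), for the 20 cholinergic and nicotinic probe sets and 5 lists of cell type markers; each point is 1 array. The arrays in orange are the pair that stood apart in cerebellar markers, and 6 to 10 of the 20 members were detected per cerebellum array and 8 to 11 per rest-of-brain array.

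Detection of the 10 genes took 3 forms. Chrna3, Chrna4, Chrna7 and Chrnb2 were each detected on all 16 arrays by at least 1 probe set, Chat, Slc5a7, Chrnb3 and Chrnb4 on none, and Chrna5 and Chrna6 on some. Of the 20 probe sets, 5 were detected on all 16 arrays, 6 on none and 9 on some. Over all 45101 probe sets the shares were 48% on all arrays, 27% on none and 25% on some. Among the 9 that varied, 6 were detected on more rest-of-brain arrays, 1 on more cerebellum arrays and 2 on equally many. Of the 11269 probe sets of the whole table that varied, 5717 were detected on more rest-of-brain and 4347 on more cerebellum arrays. Only 5 member values were marginal and 0 lay below the level of a plain non-detection. A median of 10 members per array was detected in the rest of the brain and of 8 in the cerebellum, and the ranges overlapped.

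**Figure D2:**
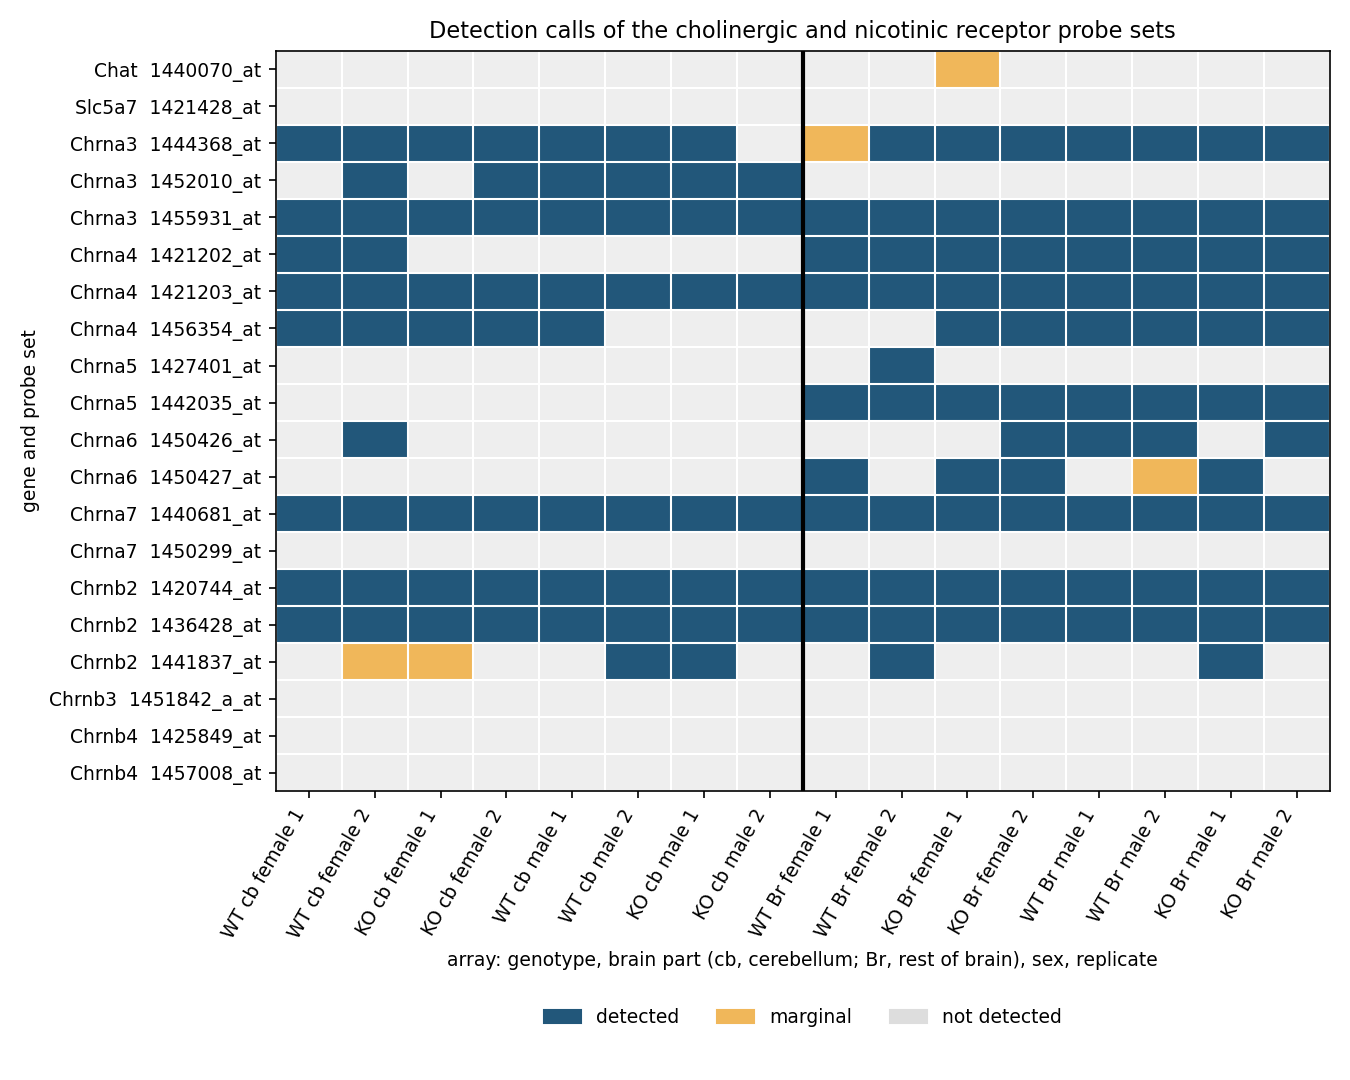
Calls of the 20 member probe sets (rows) on the 16 arrays (columns), with the cerebellum arrays left of the black line and the rest-of-brain arrays right of it. Chrna5 1442035_at is detected on every rest-of-brain array and on no cerebellum array, and Chrna3 1452010_at is detected on 6 cerebellum arrays and none from the rest of the brain.

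The makers of acetylcholine were not detected. Chat (1440070_at) was not detected on any of the 16 arrays and was marginal on 1, KO female rest-of-brain replicate 1. Slc5a7 (1421428_at) was not detected and not marginal on any array. Each gene had a single probe set, so a failed probe set and an RNA below the detection limit cannot be told apart here. Detection on no array, with marginal calls taken as not detected, was common. It was shared by 12179 other probe sets from 6995 named genes, the first by name being 0610005C13Rik, 0610006L08Rik, 0610025J13Rik, 0610030E20Rik and 0610038B21Rik. Slc18a3, which lies within Chat and encodes the transporter that loads acetylcholine into vesicles, was detected on 1 array, KO female cerebellum replicate 2, and marginal on KO male rest-of-brain replicate 1; it was named after its calls were seen. Transcription factors of forebrain cholinergic neurons were detected on part of the arrays. All 7 probe sets on that list were detected on more rest-of-brain arrays than cerebellum arrays, from 1 to 6 per array against 0 to 3; the highest cerebellum count, 3, was on KO female replicate 2. Without the pair with unusual cerebellar markers, 6 of the 7 had the larger share in the rest of the brain. Lhx8, which directs cholinergic fate in the forebrain, was detected on 3 rest-of-brain arrays and 0 cerebellum arrays, and Lhx6 (1425094_a_at), which also marks cortical interneurons, on 8 and 0.

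The widespread subunits were detected in both brain parts. Chrnb2 was detected on all 16 arrays by 1420744_at and by 1436428_at. The remaining probe set, 1441837_at, was detected on 2 cerebellum arrays (WT male replicate 2 and KO male replicate 1) and 2 rest-of-brain arrays (WT female replicate 2 and KO male replicate 1), and was marginal on WT female replicate 2 and KO female replicate 1 of the cerebellum. Chrnb2 overlaps Adar in the annotation, and which probe sets lie in the shared stretch was not analysed here. Chrna7 was detected on all 16 arrays by 1440681_at and on none by 1450299_at. The Chrna7 probe sets thus gave opposite answers, and the calls of 1 probe set do not stand for the gene.

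Chrna4 had 1 probe set, 1421203_at, detected on all 16 arrays, and 2 that varied. Chrna4 1421202_at was detected on all 8 rest-of-brain arrays and on 2 of 8 cerebellum arrays, which were both WT female replicates. The other 6 cerebellum arrays were plainly not detected. The third, 1456354_at, was detected on 5 cerebellum arrays (all 4 of females and WT male replicate 1) and on 6 rest-of-brain arrays (all 4 of males and both KO females). The brain parts overlapped for this probe set, and its exact p between them was 1. In the cerebellum it was detected on 4 of 4 female and 1 of 4 male arrays, which did not pass (Fisher's exact test, p = 0.143).

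Chrna5 and Chrna3 lie next to each other on chromosome 9, overlap at their ends on opposite strands, and have Chrnb4 beside them. Chrna5 1442035_at was detected on 8 of 8 rest-of-brain arrays and on 0 of 8 cerebellum arrays, so the brain parts did not overlap. Of all 45101 probe sets, 0.255% had this call on every rest-of-brain array and no cerebellum array, which is 115 including Chrna5. The other Chrna5 probe set, 1427401_at, was detected on 1 array, WT female rest-of-brain replicate 2. The annotation gives no accession for 1442035_at, and because Chrna5 and Chrna3 overlap, which of these RNAs it reads is uncertain.

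The Chrna3 probe sets went different ways. Chrna3 1455931_at was detected on all 16 arrays. Chrna3 1444368_at was detected on 7 arrays of each brain part, missing from KO male cerebellum replicate 2 and marginal on WT female rest-of-brain replicate 1. Chrna3 1452010_at was detected on 6 of 8 cerebellum arrays and on 0 of 8 rest-of-brain arrays, and the 2 cerebellum arrays without it were replicate 1 of the WT females and replicate 1 of the KO females. Neither cerebellum array that lacked it was the one with weak cerebellar markers, which detected it. Chrnb4, the usual partner of alpha3, was not detected on any array by 1425849_at or 1457008_at.

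The RefSeq promoter windows are shown for the genes of the 3 single probe sets with the widest differences between the brain parts. They are given as description, and no link between windows and calls was tested. By gene, Chrna3 and Chrna4 were detected on all arrays. Each is the 250 bases before an annotated start in GRCm38.p6, written in the direction of transcription, with every GC box (GGGCGG or its reverse complement CCGCCC, the site class bound by Sp1 family factors) in capitals. Chrna5 has 2 starts in the table. Its second window, the last 53 bases of its first and the whole window of Chrna4 lie inside the RefSeq span of the same gene, which other transcripts extend.
Chrna5, first start, chr9:54980630-54980879, + strand: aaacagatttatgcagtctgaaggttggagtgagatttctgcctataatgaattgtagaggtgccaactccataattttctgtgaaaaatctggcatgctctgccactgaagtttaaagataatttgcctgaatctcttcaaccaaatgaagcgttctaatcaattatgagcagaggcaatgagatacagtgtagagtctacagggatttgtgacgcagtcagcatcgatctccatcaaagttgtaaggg
Chrna5, second start, chr9:54981238-54981487, + strand: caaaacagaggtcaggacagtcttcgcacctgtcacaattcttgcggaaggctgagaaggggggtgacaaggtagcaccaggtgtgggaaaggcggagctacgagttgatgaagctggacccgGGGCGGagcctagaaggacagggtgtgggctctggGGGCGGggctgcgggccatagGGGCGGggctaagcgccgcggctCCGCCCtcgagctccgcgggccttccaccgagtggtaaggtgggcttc
Chrna3, chr9:55026563-55026812, - strand: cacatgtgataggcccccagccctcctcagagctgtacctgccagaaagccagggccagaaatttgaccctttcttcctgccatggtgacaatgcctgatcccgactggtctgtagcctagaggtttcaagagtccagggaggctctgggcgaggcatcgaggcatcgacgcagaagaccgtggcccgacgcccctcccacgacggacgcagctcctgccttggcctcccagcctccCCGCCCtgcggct
Chrna4, chr2:181039178-181039427, - strand: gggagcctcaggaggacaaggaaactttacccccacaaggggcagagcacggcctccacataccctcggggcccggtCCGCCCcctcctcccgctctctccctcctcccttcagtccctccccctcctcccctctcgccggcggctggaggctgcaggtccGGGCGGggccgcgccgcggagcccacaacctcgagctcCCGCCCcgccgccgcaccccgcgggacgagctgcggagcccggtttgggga

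The 2 Chrna5 windows differed: the first held 0 GC boxes at 40% G and C, and the second held 4 at 65.2%. The Chrna3 window held 1 GC box at 63.2% and the Chrna4 window 3 at 74.4%. The median of all 32851 windows was 52.4% G and C, and 32.7% of them held a GC box. In all, 8 member genes matched the table, with 9 windows, of which 4 held a GC box; Chrna6 and Chrnb3 did not match. The letters CAGCTG, an E-box that reads the same on both strands, stood in the windows of Chat and Chrnb4 (2 of 9 against 13% of all windows). The letters TATAAA, on either strand, stood in the window of Slc5a7 (1 of 9 against 12.4%). No member window held more than 1 kind of motif, and each match describes the letters only.

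Chrna6 and Chrnb3, which are neighbours on chromosome 8, differed in their calls. Chrna6 1450426_at was detected on 4 rest-of-brain arrays (KO female replicate 2, both WT males and KO male replicate 2) and on 1 cerebellum array, WT female replicate 2. Chrna6 1450427_at was detected on 4 rest-of-brain arrays (WT female replicate 1, both KO females and KO male replicate 1), was marginal on WT male replicate 2, and was detected on 0 cerebellum arrays. Only KO female replicate 2 had both. Neither probe set alone reached an unadjusted p under 0.05 between the brain parts (Fisher's exact test, p = 0.282 for 1450426_at and 0.0769 for 1450427_at). With detection on 4 arrays, 1450427_at could not reach it. Taken by gene, which joins these differing probe sets, Chrna6 was detected on 7 of 8 rest-of-brain arrays and 1 of 8 cerebellum arrays (Fisher's exact test, unadjusted p = 0.0101). That cerebellum array is the one with fewer cerebellar and more striatal markers. Its 4 dopamine neuron probe sets lay within the 2 to 4 of the other cerebellum arrays, and it was the only cerebellum array to detect Slc6a3. It did not detect En1, which is on that list but was detected on 6 cerebellum and 3 rest-of-brain arrays. Without the pair with unusual cerebellar markers, Chrna6 was detected on 6 of 7 rest-of-brain and 0 of 7 cerebellum arrays (exact test, unadjusted p = 0.00466). Without both KO female cerebellum arrays it was 7 of 8 against 1 of 6 (exact test, unadjusted p = 0.0256). The share of all genes at such a p was not counted, and the part of other cell types in the Chrna6 calls was not tested. Chrnb3 (1451842_a_at) was not detected on any array.

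Markers of the nuclei where these subunits are known to be made were counted beside the receptor calls, and their ranges overlapped between the brain parts. Of 7 medial habenula probe sets, 3 to 5 were detected per cerebellum array and 4 to 7 per rest-of-brain array. Tac2, a neuropeptide gene of the habenula, was detected on 1 cerebellum and 8 rest-of-brain arrays, and Gpr151, a receptor gene of habenular neurons, on 0 and 3. Kctd8 (1441495_at) of the same list went the other way, on 8 and 2, so the list had 4 probe sets on more rest-of-brain arrays and 1 on more cerebellum arrays. Of 7 dopamine neuron probe sets, 2 to 4 were detected per cerebellum array and 4 to 5 per rest-of-brain array, with Pitx3, a defining transcription factor, on none. This list had 3 probe sets on more rest-of-brain arrays and 1, En1, on more cerebellum arrays (6 and 3). Of 14 brain stem and motor neuron probe sets, 1 to 7 were detected per cerebellum array, the 7 being both KO female arrays, and 1 to 6 per rest-of-brain array, although remnants of the brain stem had been removed. The part of these cells in the receptor calls was not tested.

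Tested across the whole table, 0 of the 20 members passed between the brain parts at an adjusted p under 0.05 (Fisher's exact test, two-sided, Benjamini-Hochberg over 45101 probe sets), and 0% of all probe sets did. Chrna5 1442035_at had the smallest p the arrays allow and an adjusted p of 0.0501. At an unadjusted p under 0.05 there were 3 members and 1247 probe sets in all. When p-values were adjusted only over the 3873 probe sets detected on enough arrays, and not too many, to reach that limit at all, 17.1% were called, 447 of them detected on more rest-of-brain and 215 on more cerebellum arrays. The members held 5 such probe sets and 3 were called. Chrna5 1442035_at (0 against 8 arrays) had an adjusted p of 0.0043 by Fisher's exact test. Chrna4 1421202_at (2 against 8) and Chrna3 1452010_at (6 against 0) each had 0.0409, in opposite directions.

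The calls changed when pairs of arrays were left out. Without the pair with unusual cerebellar markers, on 7 against 7 arrays and adjusted over the probe sets able to pass, Chrna5 1442035_at stood at 0 against 7 (Fisher's exact test, adjusted p = 0.00656) and Chrna4 1421202_at at 1 against 7 (exact test, adjusted p = 0.0232). Chrna3 1452010_at stood at 5 against 0 and no longer passed (exact test, adjusted p = 0.0674). Without both KO female cerebellum arrays, on 6 against 8 arrays, Chrna5 stood at 0 against 8 (exact test, adjusted p = 0.00935) and Chrna3 at 5 against 0 (exact test, adjusted p = 0.0334). Chrna4 stood at 2 against 8 and did not pass (exact test, adjusted p = 0.0742). Each run also has fewer arrays, and no other pairs were left out. Adjusted over all probe sets, the count was 0 without either pair, with Chrna5 at 0.0925 and 0.0957 by the exact test. Within 1 sex the Chrna4 and Chrna3 probe sets each reached the smallest p in males (exact p = 0.0286) and not in females (exact p = 0.429). Chrna5 1442035_at reached it in both sexes and in both genotypes (exact p = 0.0286 each). Within 1 genotype Chrna4 1421202_at reached it in KO (exact p = 0.0286) and not in WT (exact p = 0.429). Chrna3 1452010_at reached it in neither genotype (exact p = 0.143 each). The direct comparison of female with male cerebellum arrays did not pass for Chrna4 1421202_at or Chrna3 1452010_at (Fisher's exact test, p = 0.429 each). That of KO with WT cerebellum arrays did not pass for Chrna4 1421202_at (Fisher's exact test, p = 0.429).

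**Figure D3:**
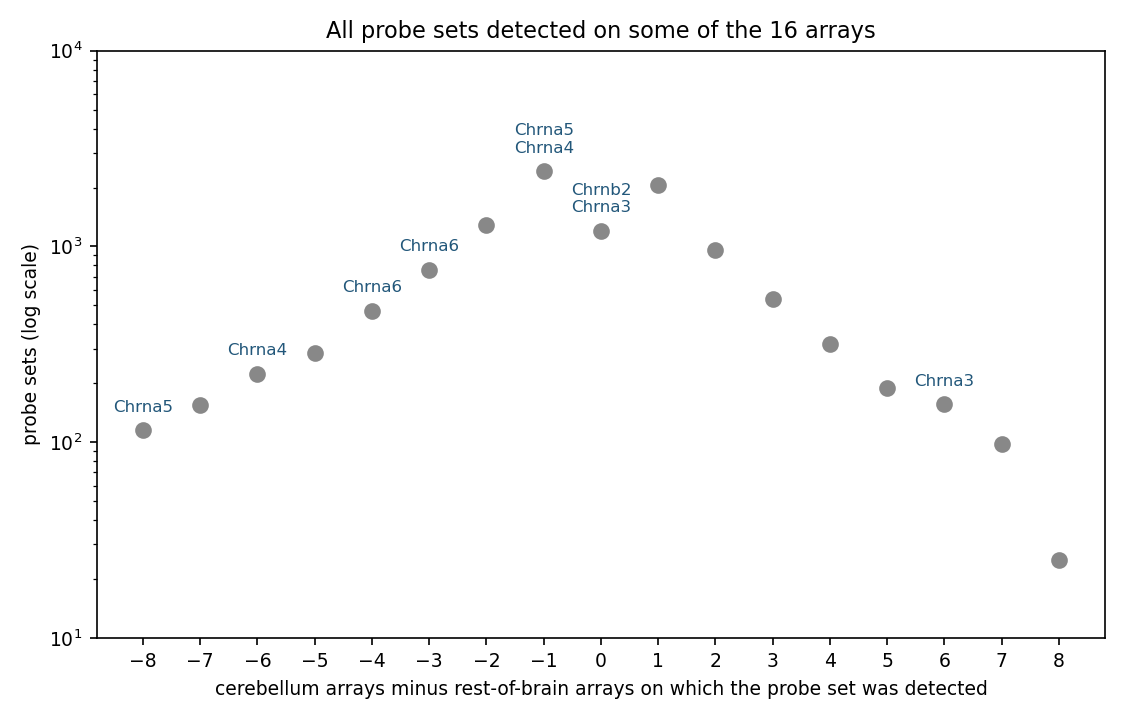
All 11269 probe sets detected on some but not all arrays, by the number of cerebellum arrays minus rest-of-brain arrays on which each was detected (horizontal axis); each point gives the number of probe sets on a log scale. Gene names mark the positions of the 9 member probe sets among them, from Chrna5 at 8 more rest-of-brain arrays to Chrna3 at 6 more cerebellum arrays.

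Genes detected on the same arrays as a member, out of all 16, were counted, with marginal calls taken as not detected. The Chrna5 1442035_at pattern was shared by 114 other probe sets from 92 named genes, the first by name being 3110039M20Rik, 9130024F11Rik, Actn2, Adam33 and Adgrd1. The Chrna4 1421202_at pattern was shared by 17 other probe sets from 12 named genes, beginning with A2ml1, Btrc, Cfap20dc, Dact2 and Fzd2. The pattern of Chrna3 1444368_at was shared by 9 others, with Cntfr, Hsf2 and Tbccd1 as the named genes. No other probe set shared the calls of Chrna3 1452010_at, Chrna4 1456354_at, Chrnb2 1441837_at or either Chrna6 probe set.

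The comparison of SINE KO with WT arrays asked whether loss of the SINE exon product changed detection of the cholinergic genes. No member passed. At an unadjusted p under 0.05 there were 0 of 20 members and 38 of all probe sets (Fisher's exact test, 8 against 8 arrays), and after adjustment 0% were called with the smallest adjusted p at 1. Of the 9 members that varied, 2 were detected on more KO arrays, 3 on more WT arrays and 4 on equally many. Chrna5 1442035_at was detected on all 4 KO and all 4 WT rest-of-brain arrays and on none of either genotype in the cerebellum. A gene detected on all arrays, such as Chrnb2, could still differ in level, which these calls do not show.

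With 2 against 2 arrays in each sex and brain part no test can pass, so only full switches were counted, in which a probe set was detected on both arrays of one genotype and neither of the other. In the female cerebellum 1 member switched, Chrna4 1421202_at, found on the pair of WT arrays and on no KO array, beside 1.45% of all probe sets. In the female rest of brain 1 member switched, Chrna4 1456354_at, found on the pair of KO arrays and on no WT array, beside 0.94% of all probe sets. In males 0 members switched, beside 1.1% of all probe sets (cerebellum) and 1.02% (rest of brain). The Chrna4 switches were in different probe sets, in opposite directions, and each lay in a group that held 1 of the arrays with unusual cerebellar markers. The brain stem markers in the female cerebellum stood at 7 and 7 of 14 probe sets in KO and 5 and 2 in WT. The 2 was on replicate 2, the array with unusual cerebellar markers, and male cerebellum arrays had 1 to 2. Hoxa5 (1443803_x_at), Hoxb5, Hoxb6 and Gbx1 switched there as well, detected on the KO pair. Hoxa5 (1448926_at) and Tph2 did not switch, being detected on WT replicate 1 too. Prph (1422530_at) was detected on all 4 female cerebellum arrays. The part of these markers in the Chrna4 switch was not tested. The remaining Chrna4 probe set, 1421203_at, was detected on all 16 arrays.

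Between the sexes 0 members passed, also at an unadjusted p under 0.05, where 129 of all probe sets stood (Fisher's exact test, 8 against 8 arrays), and 0% of all probe sets were called after adjustment, with the smallest adjusted p at 0.701. Here too only 5 members and 3873 of all probe sets could reach an unadjusted p under 0.05. Of the 9 members that varied, 4 were detected on more female and 3 on more male arrays. Chrna6 1450426_at was detected on 2 female and 3 male arrays, and 1450427_at on 3 female arrays and 1 male array.

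The rest of the cholinergic system was taken from a list of 37 genes, of which 32 had 60 probe sets. Of these, 30 were detected on all 16 arrays, 19 on none and 11 on some, with 7 on more rest-of-brain and 4 on more cerebellum arrays, also without the pair with unusual cerebellar markers. Without both KO female cerebellum arrays, 6 had the larger share in the rest of the brain and 3 in the cerebellum. None passed between the brain parts, adjusted either way or unadjusted. Only Bche 1437863_at and Lypd1 1442887_at were detected on a number of arrays that could reach an unadjusted p under 0.05, so the rest could not pass. Of all probe sets able to reach it, 17.1% were called after adjustment over them. Between genotypes 0 switched, beside 0.94% to 1.45% of all probe sets by sex and brain part, and probe sets on all or no arrays could not switch. The examples below were named after their calls were seen, since none reached the 6 arrays of difference set for naming.

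Genes that supply choline were mostly detected on every array, and those that end the signal were split. Ache, which encodes acetylcholinesterase, was detected on all 16 arrays. Of its anchors, Prima1 was detected on all 16 by 1435125_at and on none by 1425304_s_at, and Colq on none. Bche, which encodes butyrylcholinesterase, was detected on all 16 by 1436098_at, on 3 cerebellum and 6 rest-of-brain arrays by 1437863_at, and on 3 and 0 by 1421218_at. Of the 17 probe sets for choline transporters and the enzymes of phosphatidylcholine synthesis, 13 were detected on all 16 arrays.

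Receptor helpers were mostly detected on every array, and the other receptors mostly on none. Of 17 probe sets for nicotinic receptor chaperones and modulators, 13 were detected on all 16 arrays, among them all 3 of Ric3, a chaperone of alpha7, the single one of Tmem35a, which also aids alpha7 assembly, and both of Lynx1, a tethered inhibitor of nicotinic receptors. Lypd1 (1442887_at), of the same protein family, was detected on 3 cerebellum and 7 rest-of-brain arrays (Fisher's exact test, unadjusted p = 0.119), while its other probe set, 1431569_a_at, was detected on all 16. Of 11 probe sets for muscle, cochlear and other nicotinic subunits, 9 were detected on no array, and Chrna9 (1447214_at) and Chrna1 were detected on 2 cerebellum arrays and 1 rest-of-brain array. Among 4 muscarinic receptor probe sets, Chrm1 (1439611_at) was detected on all 16 arrays, Chrm4, a receptor of striatal neurons, on 2 rest-of-brain arrays, and Chrm3 on none. The neurotrophin receptor gene Ngfr, a marker of basal forebrain cholinergic neurons, was detected by 1 of its 3 probe sets, on 1 rest-of-brain array.

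**Figure D4:**
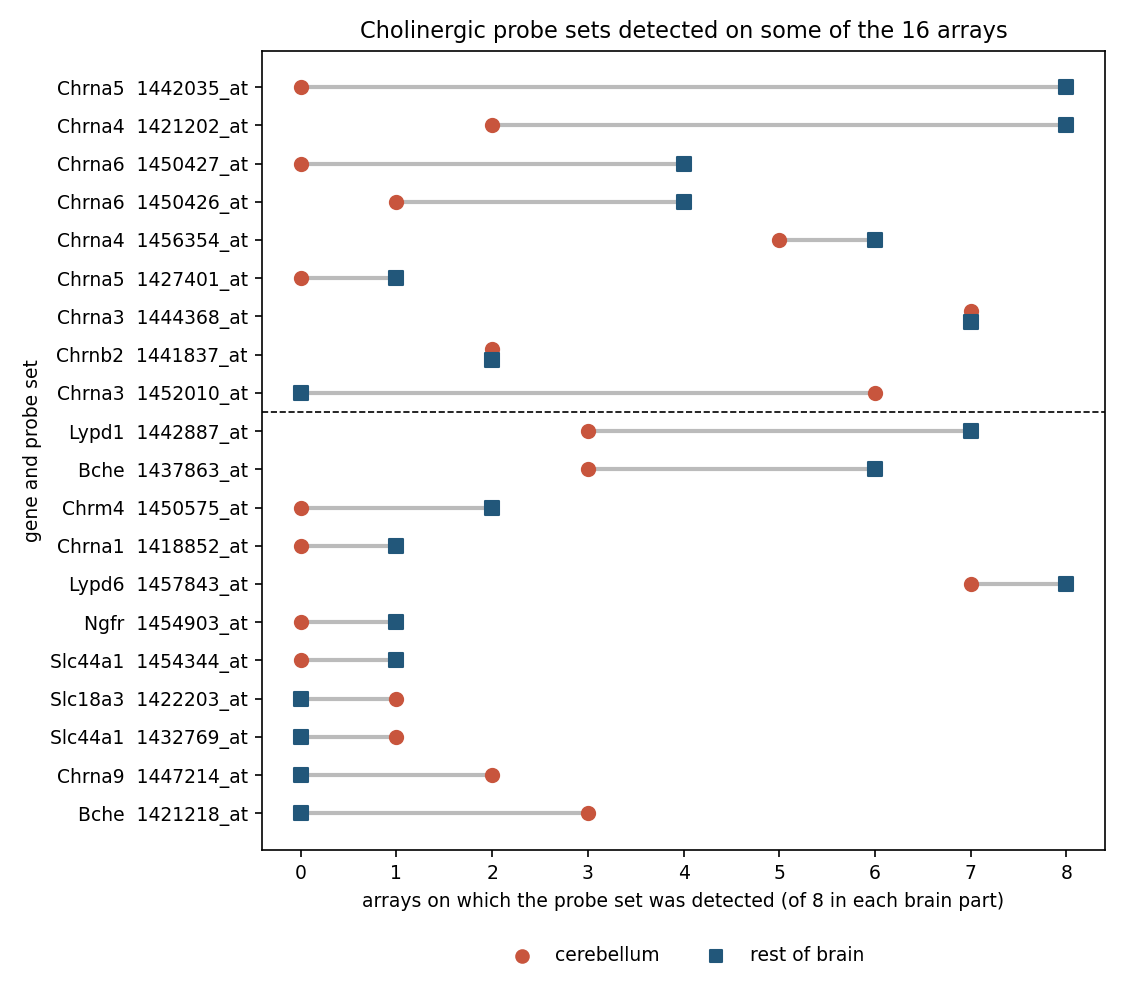
Number of arrays, of 8 in each brain part, on which each cholinergic probe set was detected (horizontal axis), for those detected on some of the 16 arrays; circles are the cerebellum and squares the rest of the brain, with the 9 members above the dashed line and the 11 other cholinergic probe sets below it. Chrna5 1442035_at spans 0 to 8 arrays, while Lypd1 1442887_at, the widest of the others, spans 3 to 7.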

How the data were processed

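RNA from cerebellum or rest of brain was hybridised to 16 Affymetrix arrays. A human array is named in the methods, but the probe sets carry mouse array names. The deposited table holds 1 score per probe set and array; the authors used MAS5 per the labels and methods, and RMA normalization according to their results text. Its 5 distinct numbers were taken as levels 2 (59.69% of values), 1 (1.509%), 0 (37.34%), -1 (0.2673%) and -2 (1.189%). No source states what they mean. Level 2 was read as detected, 1 as marginal and the rest as not detected. Genes came from the platform annotation (34958 probe sets with 1 symbol, 932 with several, 9211 unnamed here).

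Each probe set was compared between brain parts, genotypes and sexes with Fisher's exact test, two-sided, and Benjamini-Hochberg adjustment over all 45101 probe sets (threshold 0.05), and checked on simulated calls. P-values tell how often so uneven a split of calls would arise if the labels were shuffled among the arrays. The tests used no covariate and treat arrays as independent, although arrays of different brain parts may share a mouse. Alternatives were marginal calls as detected, adjustment over testable probe sets, no cross-hybridising probe sets, counting by gene, arrays left out, and pairing. Members and lists were chosen with earlier results of these data known. All members were named. Other cholinergic genes were to be named for a difference of 6 arrays between brain parts or a genotype switch. Genes detected on the same arrays as a member were named up to 5 per probe set, in alphabetical order. Promoters came from RefSeq (GRCm38.p6). Scripts used scipy 1.17.1, pandas 2.3.3 and numpy 2.4.6 under Python 3.11.15, with plots from matplotlib 3.10.9.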

Additional observations from a re-analysis of the deposited data

How the results depend on the processing

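Between the brain parts, the count of members passing over all probe sets was 0, and it stayed 0 with marginal calls read as detected, within each sex and within each genotype, where 4 against 4 arrays cannot pass the adjustment. It was 1 without probe sets ending in _x_at or _s_at (Chrna5, adjusted p = 0.0481 by Fisher's exact test). When any single array was left out it was from 1 to 1 (Chrna5 each time, exact test, adjusted p from 0.0273 to 0.0487). Without either pair of arrays with unusual markers it was 0. How many of all probe sets passed was not counted without _x_at or _s_at names or with any single array left out. Probe sets with an equal split have an equal p and pass together. With every array, 115 probe sets, Chrna5 included, were detected on 8 rest-of-brain and 0 cerebellum arrays, and 25 the reverse. Over probe sets that could pass, the count of members was 3, also with marginal calls read as detected. With any single array left out it was from 3 to 3, and without either pair it was 2. Without the pair with unusual cerebellar markers Chrna5 and Chrna4 stayed, beside 642 of all probe sets called. Without both KO female cerebellum arrays Chrna5 and Chrna3 stayed, beside 487. With every array 662 were called. Counted by gene it was 1 (Chrna5), and 2 (Chrna5 and Chrna6) over genes that could pass. The number passing over all genes was not counted in these runs, and the cause of the changes was not tested. For genotype and sex the count was 0 under every alternative run. The genotype switches changed most with 1 array left out, which leaves 1 array of a genotype. They ran from 1 to 2 members (female cb), 0 to 1 (male cb), 1 to 4 (female Br) and 0 to 3 (male Br). A full switch is easier to reach with 1 array, and its share over all probe sets was not counted in these runs. The female cb count was 2 without WT replicate 1. The male cb count was 1 without KO replicate 1 or WT replicate 2. The female Br count was 4 without WT replicate 1 and 2 without WT replicate 2 or KO replicate 1. The male Br count was 3 without KO replicate 2. Both female counts were 0 when counted by gene. Whether array numbers pair the samples is not in the labels. Correlations of same-numbered deviations lay from -0.0131 to 0.045 between the brain parts and from -0.0203 to 0.0472 between the genotypes. KO and WT arrays came from different mice, and the brain part values cannot tell whether 2 arrays came from 1 mouse. With the replicate block, an exact McNemar test over 8 pairs, 0 members passed. The smallest p of that exact test, 0.0078125, could not pass the adjustment. The runs that combine 2 choices or leave out 2 arrays were chosen after seeing the data. A call gives no level, so the detection limit of the array bounds every statement.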

Other observations

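Chrm1, which encodes the M1 muscarinic receptor of forebrain neurons, had a pattern in values that no comparison used. Its probe set 1450833_at was at level -2 on all 8 cerebellum arrays and on 0 rest-of-brain arrays, where it was plainly not detected. It was the only 1 of 45101 probe sets at level -2 on every cerebellum array and no rest-of-brain array, and 0 had the reverse pattern. In all, 2327 probe sets were at level -2 on some array and 27 on all 16. The other Chrm1 probe set, 1439611_at, was detected on all 16 arrays. Chrng, a subunit gene of the muscle receptor, had 1 probe set, 1452520_a_at, at level -2 on 8 cerebellum and 7 rest-of-brain arrays. The meaning of level -2 is not settled by any source used here, and no test was made of it.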
